A study of Mus musculus with 20 samples.

Results

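The messenger RNAs of 10 chaperones and folding enzymes of the endoplasmic reticulum (ER) were followed in mouse liver, in total RNA and in RNA recovered from polysome fractions. They were taken by gene symbol and not by a threshold on measured values, but with earlier results of these data known. The genes were Hspa5, Hsp90b1, Pdia3, Pdia4, Pdia6, Calr, Canx, Hyou1, Dnajb9 and Sdf2l1. All 10 were present among the 53028 genes measured, each under a single Ensembl identifier, and all 10 passed the filter on low values in each comparison. The 20 libraries came in pairs, a total RNA and a polysome RNA library for each of 10 chow-fed male C57BL/6J mice, 5 treated with a control LNA against GFP (mice 1, 2, 3, 8 and 9) and 5 with the SNORA73 LNA (mice 4, 6, 10, 11 and 12). LNAs, antisense oligonucleotides that carry locked nucleotides, were given intraperitoneally at 3 mg/kg for 3 injections on alternate days. SNORA73 denotes a pair of H/ACA small nucleolar RNAs that act in processing of ribosomal RNA precursors. In the labels of the samples the target is spelled Snora37, and they do not say which of the SNORA73 LNA designs was used. The study's description gives an age of 8 weeks at injection, while the methods for liver polysomes give an older age. By the same polysome methods, the mice also received cycloheximide by tail vein shortly before the livers were taken.

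Secreted and membrane proteins enter the ER unfolded, and hepatocytes, which make most plasma proteins, depend on a large folding capacity in that compartment. Hspa5 (BiP), an Hsp70 chaperone, binds nascent chains, and Hyou1 is its nucleotide exchange factor, while the J-domain protein Dnajb9 (ERdj4) stimulates its ATPase activity. Sdf2l1 acts with ER J-domain proteins, and Hsp90b1 (Grp94) is the Hsp90 of the ER. The lectins Calr (calreticulin, soluble) and Canx (calnexin, membrane-bound) hold glycoproteins for Pdia3 (ERp57), and Pdia3, Pdia4 and Pdia6 form and exchange disulfide bonds. When unfolded proteins accumulate, the unfolded protein response raises transcription of most of these genes through ATF6 and XBP1, and ATF6 acts with the CCAAT-binding factor NF-Y at the ER stress response element (ERSE).

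The ERSE, a CCAAT box and a CCACG spaced by 9 bases (searched on both strands), was present in the promoter windows of 5 of the 9 genes for which RefSeq gave a window of 300 bases, 250 before to 50 after the start (GRCm38.p6). It was present in 39 of all 32851 windows of that length (0.119%). The stretches that hold it are shown on the strand of the gene because they are a sequence feature that part of the group shares, with CCAAT and CCACG (or their complements on the opposite strand) in capitals and with 10 flanking bases on each side.
Hspa5, chr2:34772015-34772053, plus strand: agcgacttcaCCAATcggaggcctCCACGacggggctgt
Hsp90b1, first site, chr10:86705628-86705666, minus strand: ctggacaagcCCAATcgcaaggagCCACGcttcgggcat
Hsp90b1, other site, chr10:86705523-86705561, minus strand: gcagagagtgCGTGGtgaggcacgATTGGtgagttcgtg
Pdia6, chr12:17266481-17266519, plus strand: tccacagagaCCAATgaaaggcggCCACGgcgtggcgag
Calr, chr8:84847065-84847103, minus strand: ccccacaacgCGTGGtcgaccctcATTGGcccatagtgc
Canx, chr11:50325790-50325828, minus strand: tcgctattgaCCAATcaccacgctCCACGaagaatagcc

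The Hspa5 element lay 65 to 47 bases before the start, that of Pdia6 98 to 80, that of Canx 145 to 127 and that of Calr 162 to 144, and the elements of Hsp90b1 lay 212 to 194 and 107 to 89 bases before it. In Calr and at the nearer Hsp90b1 site the element read on the opposite strand. The windows of Pdia3, Pdia4, Dnajb9 and Sdf2l1 held a CCAAT box, as did 37.4% of all windows, but not this exact spacing, and the window of Hyou1 was not analysed here. The related elements ERSE-II (ATTGG and CCACG spaced by 1 base, in 0.0365% of windows) and UPRE (TGACGTGG, in 0.676%) were in the window of 0 of the 9 genes. These are matches of letters and were not tested as binding sites. Among the other ER genes listed for this work the ERSE was in the windows of Ero1b, Creld2, Dnajc3, Syvn1 and Derl3.

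The libraries held 20005389 to 42023390 counts in total RNA and 14852951 to 33824659 in polysome RNA. The members together took 0.336% to 0.641% of the counts in total RNA and 0.349% to 0.889% in polysome RNA. Values are CPM, counts relative to library size, scaled by the trimmed mean of M values (TMM). The TMM factors did not overlap between the LNA groups in total RNA, at 1.03 to 1.07 with GFP LNA and 0.882 to 0.998 with SNORA73 LNA. Scaling by library totals instead moved the median over all genes of the log2 fold change with SNORA73 LNA from 0.01 to −0.14 for total RNA, and for polysome RNA from −0.01 to −0.17. Snora73a had at most 2 counts and Snora73b at most 4 in any library, so the knockdown could not be read from these polyadenylated RNA libraries. In total RNA, SNORA73 LNA mouse 10 stood furthest from the rest, with a median correlation of 0.961 with the other libraries over all genes tested, against 0.968 to 0.982. In polysome RNA the library of mouse 11 did so, at 0.942 against 0.948 to 0.963. The published analysis left out a mouse of each group without naming it. An earlier analysis of these data matched GFP LNA mouse 9 and SNORA73 LNA mouse 10 to them, so results are given with and without these mice. That match was not tested here, and the set without these mice may differ from the published one. Hepatocyte markers (Alb, Apoa1 and 8 others) summed to 44321 to 73439 CPM in total RNA, and those of Kupffer cells to 128 to 239 CPM. In whole liver, fewer cells of a type and less RNA per cell cannot be told apart.

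The level of the chaperone mRNAs in total RNA was compared first. For none of the 10 did the level with SNORA73 LNA pass the test against GFP LNA (edgeR, FDR under 0.05), and 4 of 13195 genes tested did (0.0303%). The log2 fold changes ran from −0.06 (Pdia4) to 0.38 (Hsp90b1). They were positive for 9 of the 10, among them Pdia6 at 0.0008 (SE 0.13), and for 6827 of the 13195 genes tested. The median was 0.15 against 0.01 over all genes tested. The signs depended on scaling and mice: without TMM, Hspa5, Pdia3, Pdia6, Canx and Sdf2l1 were negative, and without mice 9 and 10 only 4 of the 10 were positive. An unadjusted p under 0.05 was reached by 0 of the 10, against 8.65% of all genes, and limma-voom, DESeq2 (0.568% of genes called) and the edgeR fit of all 20 libraries (0.029%) called 0 of them too.

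Hspa5 (ENSMUSG00000026864, chr2:34772090-34776529) stood at 1109, 518, 829, 1007 and 492 CPM in the total RNA of GFP LNA mice 1, 2, 3, 8 and 9, and at 987, 777, 1419, 632 and 507 CPM in SNORA73 LNA mice 4, 6, 10, 11 and 12. Each group held mice on both sides of the other group's median, and mouse 10 was above all others. The log2 fold change was 0.13 (SE 0.29, 95% interval −0.51 to 0.77, adjusted p = 0.937 from edgeR). Its annotated span overlaps Rabepk, and those of Pdia3, Pdia4 and Pdia6 overlap Catsper2, Mir704 and Atp6v1c2. The reads were stranded, but whether the counting used strand is not given in the sources used here, so their counts are uncertain to that extent.

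Hsp90b1 (ENSMUSG00000020048, chr10:86690841-86705444) had 1066, 649, 897, 1174 and 1179 CPM in GFP LNA mice 1, 2, 3, 8 and 9 and 1259, 963, 1999, 1307 and 913 CPM in SNORA73 LNA mice 4, 6, 10, 11 and 12. Both groups shared a range, and the difference on the log2 scale was 0.38 (SE 0.22, interval −0.11 to 0.86, adjusted p = 0.704 from edgeR). Calr (ENSMUSG00000003814, chr8:84842088-84846931) averaged 915 ± 159 CPM (SD, n = 5) with GFP LNA and 1148 ± 248 CPM with SNORA73 LNA, which is a difference of 0.33 on the log2 scale (SE 0.17, interval −0.03 to 0.69, adjusted p = 0.636 from edgeR). This was the lowest adjusted p among the members.

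Canx (ENSMUSG00000020368, chr11:50293957-50325673) was the steadiest of the genes in total RNA. It ran from 303 to 403 CPM over the 10 mice, with means of 342 ± 17.2 CPM with GFP LNA and 358 ± 45.9 CPM with SNORA73 LNA (SD, n = 5). Of the disulfide isomerases, Pdia3 (ENSMUSG00000027248, chr2:121413902-121438687) ran from 512 to 932 CPM, Pdia4 (ENSMUSG00000025823, chr6:47796141-47813512) from 169 to 362 CPM and Pdia6 (ENSMUSG00000020571, chr12:17266589-17284785) from 154 to 249.9 CPM. Their log2 fold changes were 0.14 (SE 0.16), −0.06 (SE 0.20) and 0.00 (SE 0.13). The BiP cofactors varied more between mice: Hyou1 (ENSMUSG00000032115, chr9:44379490-44392369) from 57.1 to 226 CPM, Dnajb9 (ENSMUSG00000014905, chr12:44205897-44210068) from 26.2 to 71.8 CPM and Sdf2l1 (ENSMUSG00000022769, chr16:17130138-17132383) from 21.9 to 92.4 CPM. Levels are not compared between genes, because transcript lengths were not used here.

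**Figure D1:**
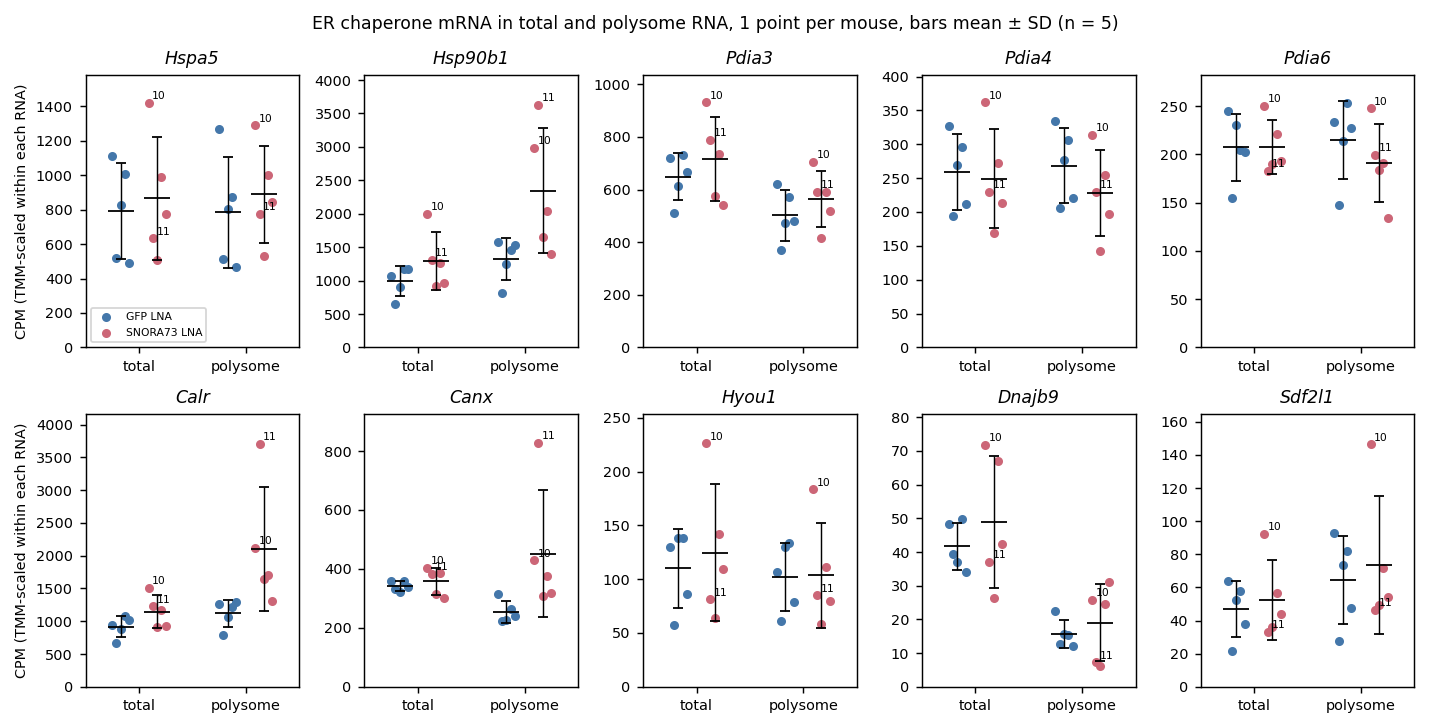
Level of each chaperone mRNA in total and polysome RNA (TMM-scaled CPM, y axis from 0), 1 point per mouse, GFP LNA in blue and SNORA73 LNA in red, with mean and SD (n = 5). Mice 10 and 11 are marked: mouse 10 is highest in total RNA in all 10 panels, and mouse 11 is highest in polysome RNA for Hsp90b1, Calr and Canx.

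Differences between mice ran across the group of genes. Mouse 10 had the highest total RNA level for all 10 chaperones, where it was highest for 19.3% of all genes tested. GFP LNA mouse 2 had the lowest level for 6 of the 10, against 9.15% of all genes, and SNORA73 LNA mouse 12 for 2, against 8.06%. The mean z-score of the 10 mRNAs in total RNA was 1.77 in mouse 10 and 0.71 in mouse 4, the other high SNORA73 LNA mouse, and −1.42 in mouse 2 and −1.03 in mouse 12. The lowest mice stood in both LNA groups. The highest, mice 10 and 4, were SNORA73 LNA mice, followed by GFP LNA mice 1 at 0.55 and 8 at 0.45. Over the 10 mice, each member correlated with the mean of the other 9 at r = 0.736 (Canx) to 0.908 (Hyou1) in total RNA. In polysome RNA the range was wider, from 0.332 (Dnajb9) to 0.973 (Pdia3), with Canx at 0.446, Calr at 0.470 and Pdia6 at 0.549. These r describe genes measured in the same libraries and carry no test. The coefficient of variation over the mice was 9.64% for Canx and 14.3% for Pdia6 but 42.4% for Hyou1, 40.0% for Sdf2l1 and 36.9% for Hspa5. The median of the members was 27.9%, against 13.9% over 7853 genes with a mean of at least 5 CPM in both RNAs.

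**Figure D2:**
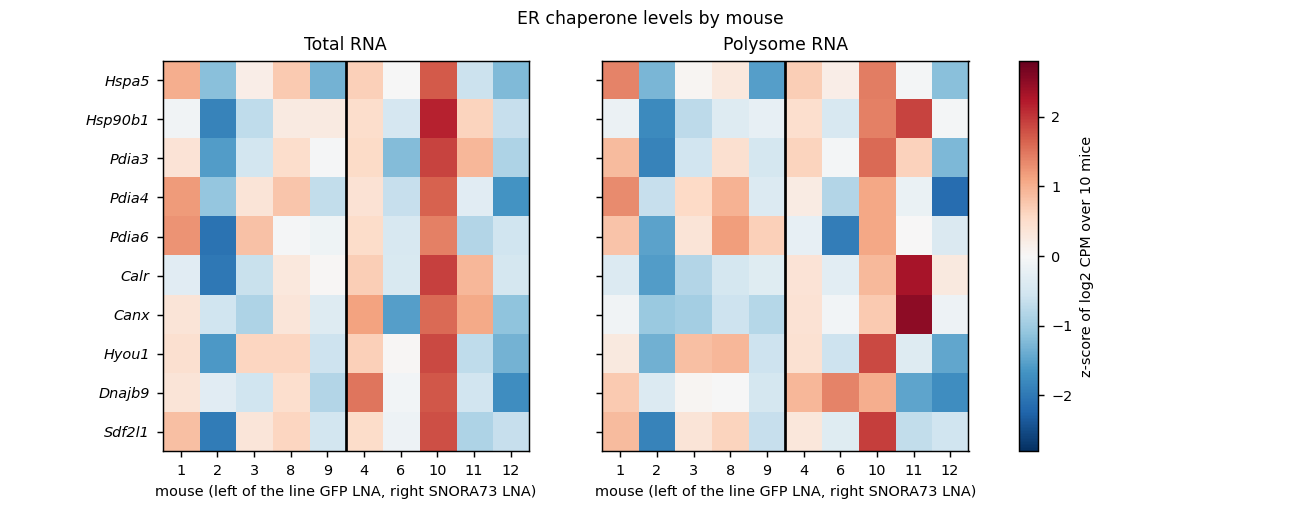
Heat map of the z-score of log2 CPM of each chaperone mRNA over the 10 mice (columns, GFP LNA mice left of the line) in total and polysome RNA. In total RNA the column of mouse 10 is red in all 10 rows, and those of mice 2 and 12 are blue in all 10, while mice of both LNA groups lie between them.

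Among 8275 other genes with a mean of at least 5 CPM in total RNA, those whose log2 CPM over the 10 libraries followed the mean z-score of the 10 chaperones most closely were Mlec (r = 0.963), Creld2 (r = 0.931), Inhbc (r = 0.930), Tspan31 (r = 0.918) and Dnajb11 (r = 0.916). Mlec encodes malectin, a carbohydrate-binding protein of the ER, Creld2 an ER-resident disulfide isomerase-like protein, and Dnajb11 (ERdj3) a luminal J-domain cochaperone of BiP. Inhbc encodes a subunit of activins and Tspan31 a tetraspanin. Mlec ran from 44.0 to 96.2 CPM and Creld2 from 17.4 to 132 CPM. In polysome RNA the same genes had r = 0.953 for Mlec, 0.899 for Creld2, 0.841 for Inhbc, 0.564 for Tspan31 and 0.859 for Dnajb11 with the members' mean z-score there.

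The LNA comparison in total RNA depended on mouse 10. Without it, the median log2 fold change of the members was −0.03, and without SNORA73 LNA mouse 12 it was 0.27. Without mice 9 and 10 the values of Hspa5, Hyou1, Sdf2l1, Dnajb9 and Pdia6 became negative, at −0.25 (SE 0.24), −0.22 (SE 0.29), −0.21 (SE 0.28), −0.02 (SE 0.23) and −0.08 (SE 0.14). Those of Hsp90b1 and Calr stayed positive, at 0.23 (SE 0.18) and 0.25 (SE 0.16), and 0 of the 10 passed the test. Of the 13017 genes tested in the 8 mice, 0.745% did.

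Polysome RNA was compared between the LNAs next. By edgeR, 0 of the 10 chaperones passed the test, and 2 of 13060 genes did (0.0153%). Calr, Canx and Hsp90b1 had the largest differences, with 1.87-fold, 1.78-fold and 1.77-fold the GFP LNA level, and an unadjusted p under 0.05 was reached by these 3 of the 10 against 13.4% of all genes. The other 7 log2 fold changes lay between −0.24 (Pdia4) and 0.29 (Dnajb9), and the median of the 10 was 0.18, against −0.01 over all genes tested.

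Calr in polysome RNA was at 1261, 787, 1062, 1210.4 and 1286 CPM in GFP LNA mice 1, 2, 3, 8 and 9, and at 1709, 1303, 2125, 3705 and 1645 CPM in SNORA73 LNA mice 4, 6, 10, 11 and 12. The groups did not overlap, although the highest control (mouse 9) and the lowest SNORA73 LNA mouse (mouse 6) were close. Such groups with SNORA73 LNA higher were found for 1 of the 10 members and for 2.14% of genes tested. The log2 fold change was 0.90 (SE 0.25, interval 0.35 to 1.45, adjusted p = 0.184 from edgeR). DESeq2 (adjusted p = 0.0233) and an edgeR fit of all 20 libraries together (adjusted p = 0.0405) called it, and limma-voom (adjusted p = 0.195) did not. The fit of 20 libraries took both libraries of a mouse as independent.

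Canx, the membrane-bound partner of Calr, had 314, 222, 227, 263 and 241 CPM in GFP LNA mice 1, 2, 3, 8 and 9 and 378, 317, 429, 827 and 309 CPM in SNORA73 LNA mice 4, 6, 10, 11 and 12. Mouse 11 was far above the rest, and mouse 12 fell just under the highest control. The log2 fold change was 0.83 (SE 0.25, interval 0.30 to 1.37, adjusted p = 0.196 from edgeR), and Canx too was called by DESeq2 (adjusted p = 0.0390) and by the fit of 20 libraries (adjusted p = 0.0338) but not by limma-voom (adjusted p = 0.219). DESeq2 called 2.15% of genes in this comparison and the fit of 20 libraries 2.3%.

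Hsp90b1 had 1584, 818, 1254, 1452 and 1533 CPM in polysome RNA of GFP LNA mice 1, 2, 3, 8 and 9 and 2047, 1402, 2989.7, 3631 and 1656 CPM in SNORA73 LNA mice 4, 6, 10, 11 and 12. Mouse 6 lay among the controls and the other 4 above them. The log2 fold change was 0.82 (SE 0.26, interval 0.25 to 1.39, adjusted p = 0.221 from edgeR, 0.0573 from DESeq2). Mouse 11 weighed on all 3 genes: without it the log2 fold changes fell to 0.61 for Calr, 0.51 for Canx and 0.62 for Hsp90b1. Without mice 9 and 10 they were 0.95 (SE 0.29), 0.84 (SE 0.29) and 0.78 (SE 0.29), and 0 of the 10 was called by edgeR, where 0.242% of genes were.

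In polysome RNA the remaining members differed less between the LNAs. Hspa5 averaged 785 ± 322 CPM with GFP LNA and 889 ± 280.4 CPM with SNORA73 LNA (SD, n = 5), which is a difference of 0.18 on the log2 scale (SE 0.28, interval −0.43 to 0.79). Pdia4 averaged 269 ± 54.9 and 228 ± 64.0 CPM, a log2 fold change of −0.24 (SE 0.20), and Pdia6 215 ± 40.5 and 191 ± 40.4 CPM, −0.17 (SE 0.18). The intervals of Pdia3, Hyou1, Dnajb9 and Sdf2l1 also held 0, and that of Dnajb9 was the widest, at −0.54 to 1.12. Dnajb9 had 6.30 CPM in mouse 12 and 7.21 in mouse 11 but 31.1 in mouse 6, so that its SNORA73 LNA values enclosed those of the controls, the highest of which was 22.4 CPM.

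**Figure D3:**
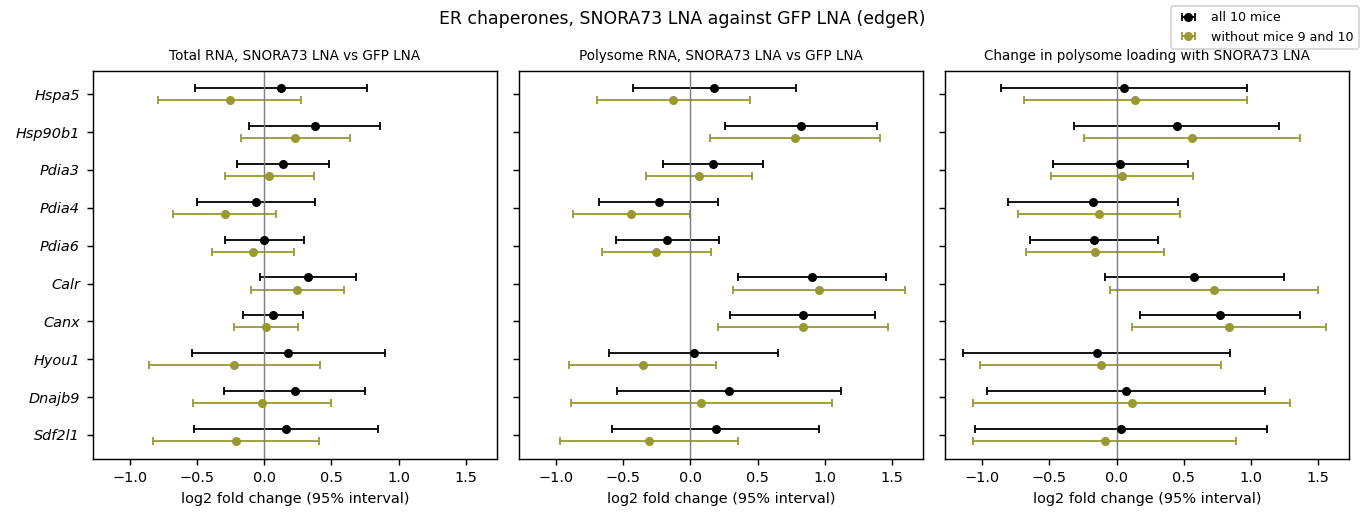
Log2 fold change of each chaperone with SNORA73 LNA against GFP LNA in total RNA, in polysome RNA and in polysome loading (edgeR, points with 95% intervals), for all 10 mice in black and without mice 9 and 10 in olive. In polysome RNA the intervals of Calr, Canx and Hsp90b1 lie above 0 in both sets of mice before adjustment for the number of genes, that of Pdia4 lies just below 0 without mice 9 and 10 (−0.87 to −0.0036), and in total RNA all 10 intervals hold 0.

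Polysome loading is the polysome level relative to the total RNA level of the same mouse, here as a log2 ratio with TMM factors set over all 20 libraries. Its change with SNORA73 LNA was tested by an interaction term on the group means, which took both libraries of a mouse as independent. This change passed for 0 of the 10 members and for 1 of 13795 genes (0.00725%). DESeq2 (0.0507% of genes called) and limma-voom also called 0 of the 10. Canx had the largest value, 0.77 (SE 0.28, interval 0.18 to 1.36, unadjusted p = 0.0134 and adjusted p = 1 from edgeR), followed by Calr at 0.58 (SE 0.32) and Hsp90b1 at 0.45 (SE 0.37). An unadjusted p under 0.05 was reached by 1 of the 10, against 2.91% of all genes. The other 7 ran from −0.17 to 0.07.

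With the mouse as a replicate block, which compares both RNAs within each animal, the errors were smaller. Canx was then at 0.68 (SE 0.19, adjusted p = 0.367 from edgeR), Calr at 0.51 (SE 0.17, adjusted p = 0.507), Hsp90b1 at 0.42 (SE 0.15, adjusted p = 0.516) and Pdia4 at −0.18 (SE 0.09, adjusted p = 0.631). The unadjusted p was under 0.05 for 3 of the 10 with the block, Canx, Calr and Hsp90b1, against 8.03% of all genes, and 0 of the 10 passed, as 0.00725% of genes did.

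By mouse, the log2 ratio of Canx was −0.21, −0.63, −0.57, −0.49 and −0.49 in GFP LNA mice 1, 2, 3, 8 and 9 and −0.06, 0.05, 0.07, 1.06 and −0.08 in SNORA73 LNA mice 4, 6, 10, 11 and 12. The groups did not overlap, with all controls below 0, and mouse 11 lay far above the other 4. For Calr the ratio ran from 0.13 to 0.40 with GFP LNA, and was 0.52, 0.48, 0.47, 1.54 and 0.80 in SNORA73 LNA mice 4, 6, 10, 11 and 12, again without overlap. Hsp90b1 ran from 0.26 to 0.55 and from 0.53 to 1.42, and there mouse 6 lay just below the highest control.

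Pdia4 differed in the other direction. Its ratio was within −0.03 to 0.05 in the GFP LNA mice, and −0.13, −0.13, −0.22, −0.05 and −0.30 in SNORA73 LNA mice 4, 6, 10, 11 and 12, all below the controls. The margin was narrow and depended on scaling. The TMM factors of mouse 4 were 0.931 in total and 1.03 in polysome RNA, and those of mouse 9 were 1.04 and 1.01. By library totals the ratio of mouse 4 lies above that of mouse 9, so the Pdia4 groups overlap, while those of Calr and Canx stay apart. With TMM scaling, ratios of the groups that did not overlap were found with SNORA73 LNA higher for 2 members (0.841% of all genes tested) and lower for 1 (0.906%). The ratios of Hspa5, Pdia3, Pdia6, Hyou1, Dnajb9 and Sdf2l1 overlapped between the groups. Mouse 11 had the highest ratio for 4 of the 10, namely Hspa5, Hsp90b1, Calr and Canx, where it was highest for 17.8% of all genes, and without it the loading values were 0.30 for Calr, 0.47 for Canx and 0.24 for Hsp90b1.

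**Figure D4:**
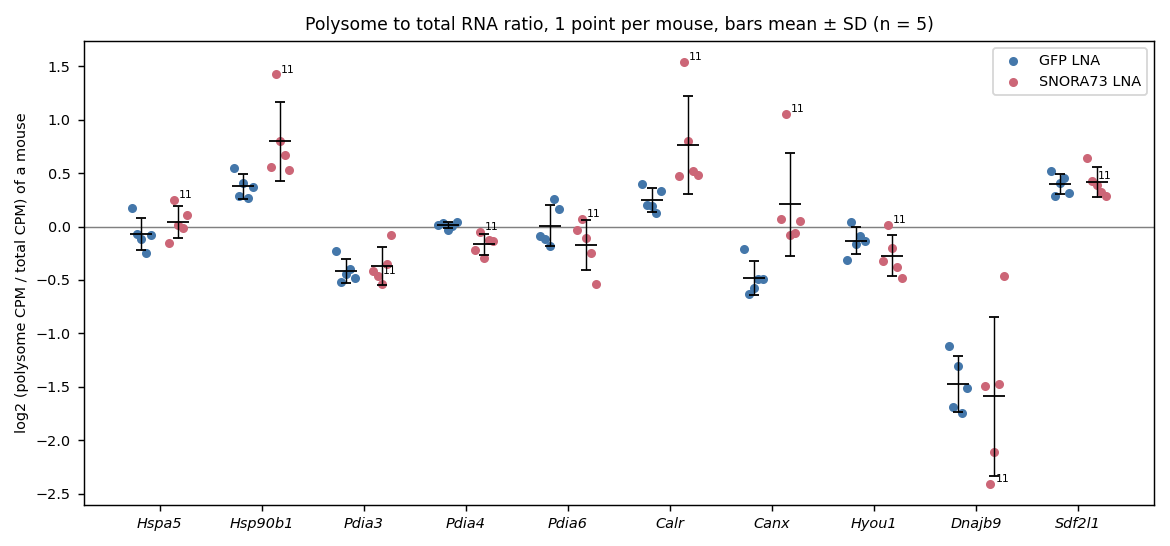
Log2 of polysome CPM over total CPM in each mouse for each chaperone (y axis, 0 marks equal CPM), GFP LNA in blue and SNORA73 LNA in red, with mean and SD (n = 5) and mouse 11 marked. Canx and Calr separate by LNA with SNORA73 LNA higher, and Pdia4 with SNORA73 LNA lower, which for Pdia4 does not hold by library totals. Dnajb9 lies below 0 in all 10 mice.

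The polysome level was then set against the total RNA level within each LNA group, first without the mouse as a replicate block. Total and polysome RNA were purified by different procedures (the polysome RNA was treated with heparinase), so RNA and procedure cannot be told apart in these values. In GFP LNA livers 1 of the 10 members passed, Dnajb9, where 42.8% of 13795 genes did (21.8% higher in polysome RNA and 21.0% lower). Dnajb9 was lower in polysome RNA by −1.45 on the log2 scale (SE 0.36, adjusted p = 0.00263 from edgeR). In SNORA73 LNA livers, where 38.0% of genes passed (19.7% higher in polysome RNA and 18.2% lower), 3 members did: Dnajb9 at −1.38 (SE 0.36, adjusted p = 0.00433), Calr at 0.83 (SE 0.23, adjusted p = 0.00622) and Hsp90b1 at 0.83 (SE 0.26, adjusted p = 0.0153). Without mouse 11 the value of Hsp90b1 was 0.63 and no longer passed (adjusted p = 0.0919), while Calr at 0.56 (adjusted p = 0.0377) and Dnajb9 did.

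With the mouse as a replicate block more members passed, 5 in GFP LNA livers (against 56.1% of genes, 28.9% higher and 27.2% lower) and 7 in SNORA73 LNA livers (against 51.1%, 26.0% higher and 25.1% lower). In GFP LNA livers Hsp90b1 at 0.38 (SE 0.11, adjusted p = 0.00737 from edgeR) and Sdf2l1 at 0.40 (SE 0.07) were higher in polysome RNA, and Pdia3 at −0.42 (SE 0.08), Canx at −0.48 (SE 0.13) and Dnajb9 at −1.47 (SE 0.19) were lower. In SNORA73 LNA livers Hsp90b1 at 0.79 (SE 0.11), Calr at 0.76 (SE 0.12) and Sdf2l1 at 0.41 (SE 0.07) were higher, and Dnajb9 at −1.54 (SE 0.20), Pdia3 at −0.37 (SE 0.08), Hyou1 at −0.27 (SE 0.08) and Pdia4 at −0.17 (SE 0.06, adjusted p = 0.0373) were lower. Without the block, DESeq2 called 3 members in each LNA group, against 44.9% and 40.2% of genes, and edgeR without mice 9 and 10 called 1 and 3, against 39.1% and 36.2%. The differing lists are not a test between the LNAs, which the loading comparison gives.

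The sign of the ratio was the same in every mouse for 5 members. It was above 0 in all 10 mice for Hsp90b1, Calr and Sdf2l1, as for 20.1% of all genes, and below 0 in all 10 for Pdia3 and Dnajb9, as for 19.1%. Dnajb9 had ratios of −1.12, −1.69, −1.30, −1.75 and −1.51 in GFP LNA mice 1, 2, 3, 8 and 9 and −1.47, −0.47, −1.49, −2.41 and −2.11 in SNORA73 LNA mice 4, 6, 10, 11 and 12. Sdf2l1, in contrast, lay between 0.29 and 0.64 in all 10. The BiP cofactors Dnajb9, Hyou1 and Sdf2l1 had mean log2 ratios over the 10 mice of −1.53, −0.20 and 0.41, and the lectins Canx and Calr −0.14 and 0.51.

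For most members a mouse that was high in total RNA was high in polysome RNA. Pearson's r of log2 CPM over the 10 mice was 0.992 for Sdf2l1 (permutation p = 1e-05, the smallest these permutations can give), 0.958 for Hspa5 (permutation p = 1e-05), 0.958 for Hyou1 (permutation p = 6e-05) and 0.951 for Pdia4 (permutation p = 4e-05), with Spearman's rho of 0.976, 0.964, 0.903 and 0.939 (permutation p = 1e-05, 4e-05, 0.0007 and 0.00023). Pdia3 had r = 0.887 and rho = 0.855 (permutation p = 0.00059 and 0.00254), Hsp90b1 0.843 and 0.830 (0.00389 and 0.00476), Calr 0.773 and 0.758 (0.0122 and 0.0147) and Dnajb9 0.765 and 0.745 (0.00995 and 0.0177). Pdia6 at 0.681 and 0.673 (permutation p = 0.0304 and 0.0391) and Canx at 0.602 and 0.576 (permutation p = 0.0542 and 0.0876) were the lowest. These are 10 relations with two-sided p-values that are not adjusted, and 5 mice per LNA are too few for r within a group.

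Without the 2 mice farthest from the median in total RNA, r was 0.976 for Sdf2l1, 0.938 for Hspa5, 0.916 for Hyou1 and 0.963 for Pdia4, but 0.437 for Pdia6, whose relation rests on those mice. It was 0.745 for Pdia3, 0.684 for Hsp90b1, 0.723 for Calr, 0.722 for Dnajb9 and 0.685 for Canx. Those of Calr, Canx, Pdia3, Pdia6 and Dnajb9 also moved with the scale or with single mice. Scaled by library totals, rho was 0.576 for Calr (permutation p = 0.0877) and 0.624 for Pdia3 (permutation p = 0.0588), and r was 0.363 for Canx (permutation p = 0.299). On linear CPM, r was 0.645 for Calr (permutation p = 0.0674) and 0.558 for Canx (permutation p = 0.0678). With single mice left out, r ranged from 0.535 to 0.774 for Pdia6, 0.671 to 0.876 for Calr, 0.646 to 0.875 for Dnajb9 and 0.561 to 0.690 for Canx. The highest of these values for Pdia6, Dnajb9 and Canx were those without SNORA73 LNA mouse 6. The permutation p of r was then 0.0565, 0.132 and 0.0741 for Pdia6 without mouse 1, 2 or 10 and 0.0627 for Dnajb9 without mouse 12, and 0.0477 and 0.0274 for Canx without mouse 8 or 6. The median r of the members was 0.865, against 0.565 over the 7853 genes with a mean of at least 5 CPM in both RNAs. Those genes were not matched to the members in level or in spread between mice. The median coefficient of variation in total RNA was 27.9% for the members and 13.9% for those genes. In polysome RNA mouse 10 was among the highest 3 mice for all 10 members, as in total RNA, and mouse 2 among the lowest 3 for 9.

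The rest of the ER folding machinery was taken from lists of the pathway. Of 33 other folding factors, 24 ER-associated degradation genes, 24 genes of the translocon and signal sequence processing and 16 sensors and transcription factors of the unfolded protein response, 0 passed the LNA comparison by edgeR in either RNA. Their median log2 fold changes in total RNA were 0.07, 0.09, 0.02 and −0.0035, and in polysome RNA 0.09, −0.01, −0.09 and −0.15. In total RNA the ends of the folding factors were Sil1, an exchange factor of BiP, at 0.35 (SE 0.11) and Fkbp14, a prolyl isomerase, at −0.26 (SE 0.18). Those of the degradation genes were Derl3 at 0.68 (SE 0.67) and Man1b1 at −0.19 (SE 0.10). Without mice 9 and 10, Derl3 turned to −0.73 (SE 0.40) and was the lowest of its list. In polysome RNA Eif2ak3, the sensor kinase PERK, was the lowest of the sensors at −0.65 (SE 0.22, adjusted p = 0.239 from edgeR, and −0.42 without mice 9 and 10), and Ern1, the sensor IRE1, the highest at 0.14 (SE 0.20). Of the 13 targets of PERK and ATF4, 12 were tested in total RNA and 11 in polysome RNA, and 0 passed. Their values ran from −1.75 (SE 0.92) for Atf3 to 0.21 (SE 0.33) for Trib3 in total RNA, and without mice 9 and 10 Atf3 was at −0.10 (SE 0.62) and Trib3 at 0.48 (SE 0.27). For the 20 cytosolic and mitochondrial chaperones, of which 0 passed, the medians were −0.01 in total RNA and −0.04 in polysome RNA.

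Between polysome and total RNA of GFP LNA livers, where 21.8% of all genes passed as higher and 21.0% as lower, 10 of the 33 folding factors were higher in polysome RNA and 7 lower. Fkbp11, a prolyl isomerase, was the highest at 1.07 (SE 0.28, adjusted p = 0.00406 from edgeR) and Hspa13, an Hsp70 family member, the lowest at −1.43 (SE 0.23). Among the 24 degradation genes 12 were higher and 2 lower, from Edem2 at 0.84 (SE 0.11) to Edem3 at −1.42 (SE 0.22), both of which act on mannoses of misfolded glycoproteins. The 24 translocon genes gave 8 higher and 6 lower, from Sec61b at 1.31 (SE 0.09) to Ssr3 at −0.90 (SE 0.17), and the 16 sensors and factors 4 higher and 3 lower, from Creb3 at 0.52 (SE 0.14) to Mbtps2, a protease that cleaves ATF6, at −1.20 (SE 0.31). Of the cytosolic and mitochondrial chaperones 4 of 20 were higher and 0 lower. With the replicate block, where the shares of all genes were 28.9% and 27.2%, the folding factors gave 16 higher and 7 lower, the degradation genes 14 and 3, the translocon genes 12 and 8, the sensors and factors 4 and 6, and the cytosolic and mitochondrial chaperones 8 and 1.

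Markers of other liver cells were set beside the members. Secretory cells such as plasma cells are rich in the same chaperones, and the 10 plasma cell and B cell markers summed to 129 to 156 CPM with GFP LNA and 112 to 149.7 CPM with SNORA73 LNA in total RNA, with Tnfrsf17 at 0 in the SNORA73 LNA libraries. In polysome RNA they summed to 105 to 147 and 101.8 to 121 CPM, and there Tnfrsf17 was at 0 in the GFP LNA libraries instead. The sums of Kupffer cell (139 to 223 and 128 to 239 CPM), stellate cell (243 to 327 and 213 to 297 CPM), cholangiocyte (27.9 to 46.1 and 23.0 to 69.4 CPM) and neutrophil markers (3.52 to 8.44 and 2.05 to 15.2 CPM, with Ly6g at 0) overlapped between the LNAs in total RNA. Those of the 8 sinusoidal endothelial markers did not. In total RNA they were 134 to 162.9 CPM with GFP LNA and 163.1 to 183 CPM with SNORA73 LNA, so the ranges nearly met. In polysome RNA they were 113 to 131 against 138 to 153 CPM. These sums rest on the TMM factors, which in total RNA were 1.03 to 1.07 with GFP LNA and 0.882 to 0.998 with SNORA73 LNA. By library totals the GFP LNA sums are higher and the SNORA73 LNA sums lower, so the endothelial ranges in total RNA overlap. The other sums were not examined by library totals. Of single genes tested, 1.12% in total RNA and 2.14% in polysome RNA had groups without overlap and SNORA73 LNA higher, which gives no share for sums of 8 genes. Log2 fold changes were positive for 7 of the 8 endothelial markers in total RNA (Lyve1 was at −0.10), as for 6827 of 13195 genes. In polysome RNA they were positive for all 8, as for 6351 of 13060 genes. Of these markers 1 of 8 passed in total RNA, against 0.0303% of all genes, the scavenger receptor Stab2 at 1.06 (SE 0.15, adjusted p = 0.0497 from edgeR). The part of these cells in the chaperone values was not tested.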

How the data were processed

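Libraries of polyadenylated liver RNA were sequenced by the authors as stranded paired reads. They trimmed and filtered reads with fastp, removed reads aligned to rRNA, estimated transcript counts with kallisto against Ensembl transcripts and used tximport to obtain gene values. What they deposited is a table of estimated counts without normalization, of which 85.7% were whole before they were rounded here. Whether kallisto was run with its strand option is not given in the sources used here. Gene positions and promoter windows are those of RefSeq (GRCm38.p6).

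A gene entered a fit if its CPM was over 0.5 in 4 or more of the libraries. Tests were by edgeR 4.0.16 (R 4.3.3, quasi-likelihood) after TMM scaling, with Benjamini-Hochberg adjustment over all genes tested and a call at an FDR under 0.05. Total and polysome RNA were fitted apart, and loading and polysome against total RNA over all 20 libraries. Standard errors were taken from the fold change and the F statistic. The alternatives were limma 3.58.1 (voom), DESeq2 1.42.0, other scalings and filters, mice left out, and the mouse as a replicate block. The paired samples come from the same animal by the labels. Deviations from the group means correlated between the RNAs of a mouse at 0.108 to 0.518, and the own library was the best match in 9 of 10 mice. The exception was SNORA73 LNA mouse 6, at 0.108 with its own polysome library and 0.217 with that of another SNORA73 LNA mouse. Its log2 ratio was the highest for 19.8% of genes and the lowest for 19.2%. The pairing of this mouse rests on the labels alone. The p-values of the LNA comparisons fitted within total or within polysome RNA measure the spread between mice. Fits of all 20 libraries without the replicate block took both libraries of a mouse as independent. Their p-values, also those of loading, therefore do not measure that spread alone. Correlations were tested with 100000 permutations. The scripts were tested on simulated data.

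The 10 members, the gene lists and the tests were chosen with earlier results of these data known. Of the lists, the text names the genes with the highest and lowest fold change and those passing an LNA comparison, and the 5 genes most like the members in total RNA.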

Additional observations from a re-analysis of the deposited data

Results flagged for a closer look

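In 1 of 60 groups of 5 mice examined, a value stood apart from the rest by Dixon's test at the 95% level, which chance gives in about 1 of 20 groups. The log2 polysome to total ratio of Canx was 1.06 in SNORA73 LNA mouse 11, while the other 4 SNORA73 LNA mice lay between −0.08 and 0.07. Without mouse 11, the change in Canx loading with SNORA73 LNA was 0.47.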

How the results depend on the processing

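In total RNA, 0 of the 10 chaperones were called under any alternative, and the number of all genes called went from 4 to 75 with DESeq2, 2 without TMM, 13 without a filter, 2 with CPM above 1 in every library and 97 without mice 9 and 10, and to 1 to 59 with single mice left out. In polysome RNA the 2 genes became 281 with DESeq2, 0 without TMM, 72 without a filter, 31 with CPM above 1 in every library, 31 without mice 9 and 10, 317 in the fit of 20 libraries, and 0 to 17 with single mice left out. DESeq2 (2.15% of genes) and the fit of 20 libraries (2.3%) called 2 members there, Calr and Canx. For loading, the 1 gene became 0 with limma-voom, with CPM above 1 in every library, without mice 9 and 10 and with the replicate block without these mice, and 7 with DESeq2.

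Against total RNA in GFP LNA livers, the 1 member called became 2 with limma-voom, DESeq2 size factors or mitochondrial genes left out, 3 with DESeq2 or CPM above 1 in every library, and 5 with the replicate block, with or without mice 9 and 10 (1 to 2 with single mice left out). The share of all genes called went from 42.8% to 44.7%, 42.8% and 42.1%, to 44.9% and 50.2%, and to 48.2% and 56.1% without and with these mice (34.6% to 45.8% with single mice left out). In SNORA73 LNA livers the 3 became 7 with the replicate block and 6 with it without mice 9 and 10 (2 to 3 with single mice left out), where the share of all genes went from 38.0% to 51.1% and 44.1% (30.2% to 39.0%). The block without these mice was added after seeing the data. The replicate block changed no other count of members called.

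Of the signs that reversed, 0 belonged to a value that passed the test. In total RNA, Pdia6 was −0.0063 with DESeq2, −0.0062 with its size factors, −0.15 without TMM, −0.0229 without a filter, −0.0126 with CPM above 1 and −0.0836 without mice 9 and 10. Without TMM, Hspa5 was −0.0326, Pdia3 −0.008, Canx −0.0821 and Sdf2l1 −0.0009, and without mice 9 and 10 Hspa5 was −0.25, Sdf2l1 −0.21, Hyou1 −0.22 and Dnajb9 −0.0153. In polysome RNA, Hyou1 was −0.0246 with limma-voom, −0.14 without TMM and −0.36 without mice 9 and 10, where Hspa5 was −0.13 and Sdf2l1 −0.31. Loading of Dnajb9 was −0.0751 with limma-voom, −0.0746 with the replicate block and −0.0909 with the block without mice 9 and 10, and that of Sdf2l1 −0.0892 without these mice and −0.0542 with the block too. In polysome against total RNA of GFP LNA livers, Pdia4 was −0.0097 with DESeq2, its size factors or no mitochondrial genes, −0.006 without a filter, −0.0548 with CPM above 1, −0.0186 without mice 9 and 10 and −0.0171 with the block too. Pdia6 was −0.0046 with DESeq2, −0.0045 with its size factors, −0.0052 without mitochondrial genes, −0.0003 without a filter, −0.0518 with CPM above 1, −0.0456 without mice 9 and 10 and −0.0541 with the block too. In SNORA73 LNA livers Hspa5 was −0.0016 with DESeq2, −0.0015 with its size factors, −0.0631 with CPM above 1 and −0.0022 without mitochondrial genes.

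With single mice left out, values that changed sign ranged in total RNA from −0.12 to 0.27 (Hspa5), −0.23 to 0.0558 (Pdia4), −0.0947 to 0.0616 (Pdia6), −0.15 to 0.35 (Hyou1) and −0.14 to 0.29 (Sdf2l1). In polysome RNA they ranged from −0.28 to 0.18 (Hyou1) and −0.22 to 0.35 (Sdf2l1), and for loading from −0.0036 to 0.15 (Hspa5), −0.0309 to 0.082 (Pdia3), −0.23 to 0.20 (Dnajb9) and −0.0685 to 0.0695 (Sdf2l1). In polysome against total RNA they ranged from −0.15 to 0.0129 (Hspa5), −0.0135 to 0.0123 (Pdia4) and −0.0519 to 0.0456 (Pdia6) with GFP LNA, and from −0.0361 to 0.0722 (Hspa5) and −0.0021 to 0.39 (Canx) with SNORA73 LNA. The cause of these changes was not tested.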
